A study of Rattus norvegicus with 105 samples.

Results

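The genes described here encode the scaffold of the postsynaptic density and the proteins docked on it. They were 36 names, chosen with earlier results of these data known (MAGUK, Dlgap and Shank scaffolds, adhesion proteins, receptor auxiliary subunits, PDZ adaptors, regulators of spine actin and small G proteins, and neurogranin), with Homer and the receptors themselves left out. A probe set carrying 1 of these names as its only symbol was found for 35 of the 36, among 14217 genes so named on the array, and Magi2 is not analysed here. Where a gene had several probe sets, as 19 did, the one with the highest mean signal stood for it. Transcript levels had been measured in rat frontal cortex with 105 single-colour arrays in 3 experiments and 11 groups. The lesion experiment compared 12 arrays from rats with a ventral hippocampal lesion with 10 sham arrays. The TTX experiment compared 11 arrays from rats whose ventral hippocampus had been disrupted with tetrodotoxin (TTX), a sodium channel blocker, with 9 sham arrays. In the neuroleptic experiment, rats given vehicle (9 arrays) stood against rats given clozapine chronically at a low, medium or high level (10, 9 and 8 arrays) or haloperidol at such levels (9 arrays each). Clozapine is an atypical and haloperidol a typical antipsychotic drug. The labels gave dose levels as words and named no strain, sex or age. Since they do not tie arrays to animals, the p-values rest on the spread between arrays, whatever its source.

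The postsynaptic density is a protein-dense plate under the membrane of the excitatory synapse. Membrane-associated guanylate kinases (MAGUKs, the Dlg proteins) hold glutamate receptors and their auxiliary subunits there, Dlgap proteins join the MAGUKs to Shank, and Shank reaches the actin of the dendritic spine through further partners. Frontal cortical neurons carry such synapses from hippocampal, thalamic and local inputs, and dopamine, whose receptors antipsychotic drugs block, modulates them.

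No scaffold gene changed in level by the test used in any of 12 comparisons. Differences are given on the log2 scale ± standard error (SE), from linear models (limma) with p-values adjusted by Benjamini-Hochberg across all 18625 tested probe sets of an experiment, and a gene was called at an adjusted p under 0.05. Over the 418 tests of a scaffold gene, 0 were called, 38 had an unadjusted p under 0.05, and the smallest adjusted p was 0.120, for Ctnnd2 between clozapine and haloperidol. Over all probe sets the share with an unadjusted p under 0.05 ran from 2.72% to 15.2% by comparison. Comparisons share arrays, so the same gene can enter the 38 several times. No scaffold gene had groups that did not overlap in the 11 comparisons of arrays with arrays. The same was not counted over all probe sets, so this describes the arrays only. The intervals bound the size of what could have been missed only under this model. It had no term for runs of sample numbers, whose differences are given below. The 95% interval of the difference lay within 0.5 of 0 for 31 of 34 tested genes in the lesion comparison, 31 of 35 with TTX, 32 of 35 with clozapine and 28 of 35 with haloperidol. Cacng8 and Neto1, which had the widest spread between neuroleptic arrays of a group (SD 0.91 and 0.68), and Ppp1r9a were among those outside in several comparisons. In whole tissue, fewer cells of a type and less RNA per cell cannot be told apart.

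**Figure D1:**
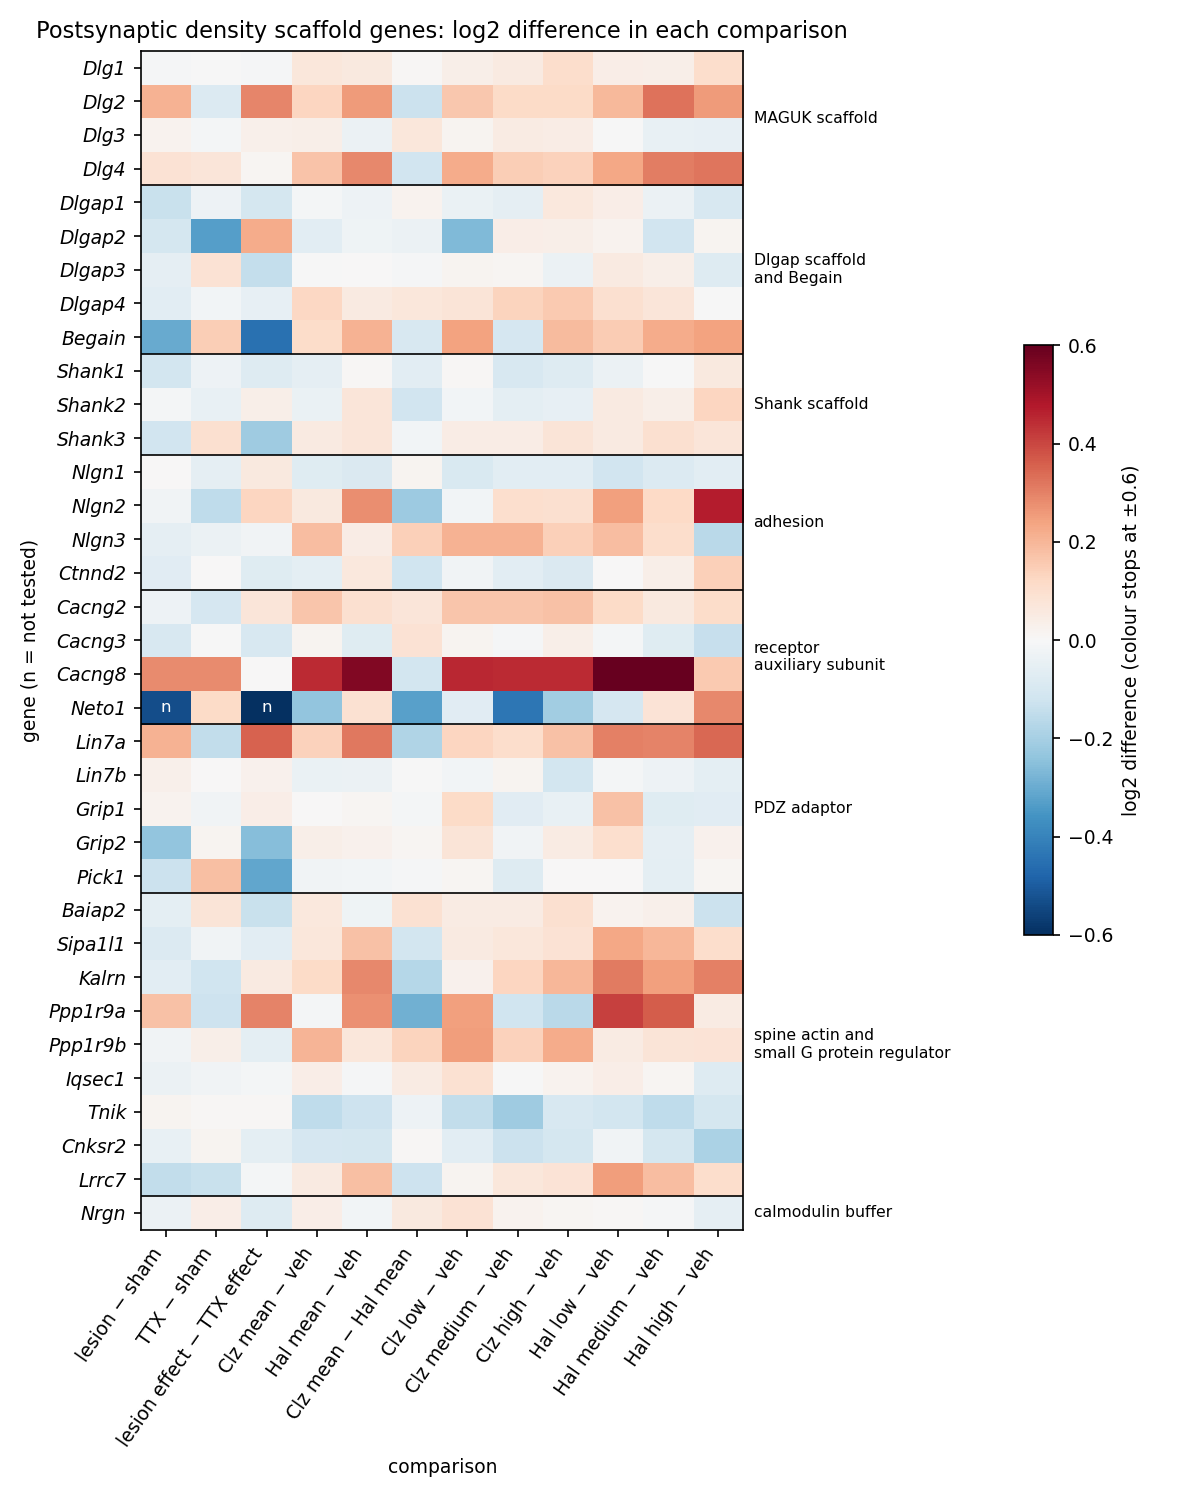
Log2 difference of the 35 scaffold genes (vertical axis, grouped by role) in the 12 comparisons (horizontal axis; Clz, clozapine; Hal, haloperidol; veh, vehicle), red for higher and blue for lower in the first-named group, with colour stopping at 0.6. The letter n marks Neto1 where it fell below the signal filter; no cell passed an adjusted p of 0.05.

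All arrays of an experiment resembled each other, with 4 arrays over 3 scaled median absolute deviations below the median correlation with the rest: lesion replicate 7, lesion sham replicate 9, haloperidol medium replicate 8 and haloperidol high replicate 8. Of 8 excitatory neuron markers 7 were measured and all 7 passed the signal filter, as did all 12 pan-neuronal markers and, of 9 striatal markers, 7 in the neuroleptic and TTX experiments.

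After the hippocampal lesion the scaffold genes lay slightly below sham, with every Dlgap and Shank gene below it at the probe set used. Of the 34 tested, 24 were lower (50.5% of all tested probe sets were), their median difference was -0.04 against -0.00 over all probe sets, 0 were called (0% of all), and 3 had an unadjusted p under 0.05 (7.79% of all). All 5 members of the Dlgap and Begain group lay below sham (median -0.10), as did all 3 Shank genes (median -0.11, highest -0.01). Of 4 MAGUK genes 3 lay above sham. Among 26 other tested probe sets of scaffold genes, 16 shared the sign of the probe set used. These counts describe direction only, since no member passed the test.

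Grip2, a PDZ adaptor that binds AMPA receptor subunits, had the smallest p. Its log2 intensity ran from 9.48 over a median of 9.89 to 10.12 on the 12 lesion arrays and from 9.82 over 10.05 to 10.31 on the 10 sham arrays. The groups overlapped, and 4 lesion arrays lay below every sham array. The difference was -0.24 ± 0.082 (adjusted p = 0.566). Dlgap1, which links MAGUKs to Shank, ran from 13.62 over 14.00 to 14.02 after the lesion and from 13.88 over 14.06 to 14.31 in sham rats. All 12 lesion arrays lay below the sham mean and 3 below every sham array. The difference was -0.14 ± 0.059 (adjusted p = 0.608).

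Dlg2, a MAGUK that clusters NMDA receptors and potassium channels, and Lin7a, an adaptor that binds MAGUK complexes, lay the other way. Dlg2 ran from 10.15 over 10.56 to 10.78 after the lesion and from 9.77 over 10.28 to 10.61 in sham rats, a difference of 0.21 ± 0.093 (adjusted p = 0.616). The groups overlapped, although 5 lesion arrays exceeded every sham array. Lin7a ran from 10.61 over 11.02 to 11.56 against 10.58 over 10.82 to 11.19, a difference of 0.21 ± 0.10 (adjusted p = 0.668), with 4 lesion arrays above every sham array. Begain, a partner of the guanylate kinase domain of MAGUKs, had the lowest difference of those tested, -0.30 ± 0.15 (adjusted p = 0.671), with 11 of 12 lesion arrays below the sham mean. Neto1, an auxiliary subunit of kainate receptors, fell under the signal filter in this experiment and was not tested: its lesion arrays measured 8.37 ± 0.44 (SD, n = 12) and its sham arrays 8.91 ± 0.38 (SD, n = 10), with 11 of 12 lesion arrays below the sham mean. With no filter, 0 of 35 scaffold genes were called.

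The lesion shift was not even over the arrays. Within the first 11 sample numbers of the experiment the median of tested members was -0.00, and within the last 11 it was -0.08, while all 5 Dlgap and Begain genes were lower in the latter (Begain -0.55, Dlgap2 -0.25, Dlgap1 -0.19) and Dlgap2 was 0.04 higher in the former. Lesion replicate 7 had the lowest mean over the scaffold genes, 0.29 below the experiment's average, and low correlation with the rest. Without it the median difference was -0.02. Beside this, 8 of 8 oligodendrocyte markers (median -0.14) and 11 of 12 pan-neuronal markers (median -0.05) lay lower and 6 of 7 interneuron markers (median 0.15) and 4 of 6 striatal markers (median 0.16) higher after the lesion, with none called. The part of cell makeup in the scaffold values was not tested.

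**Figure D2:**
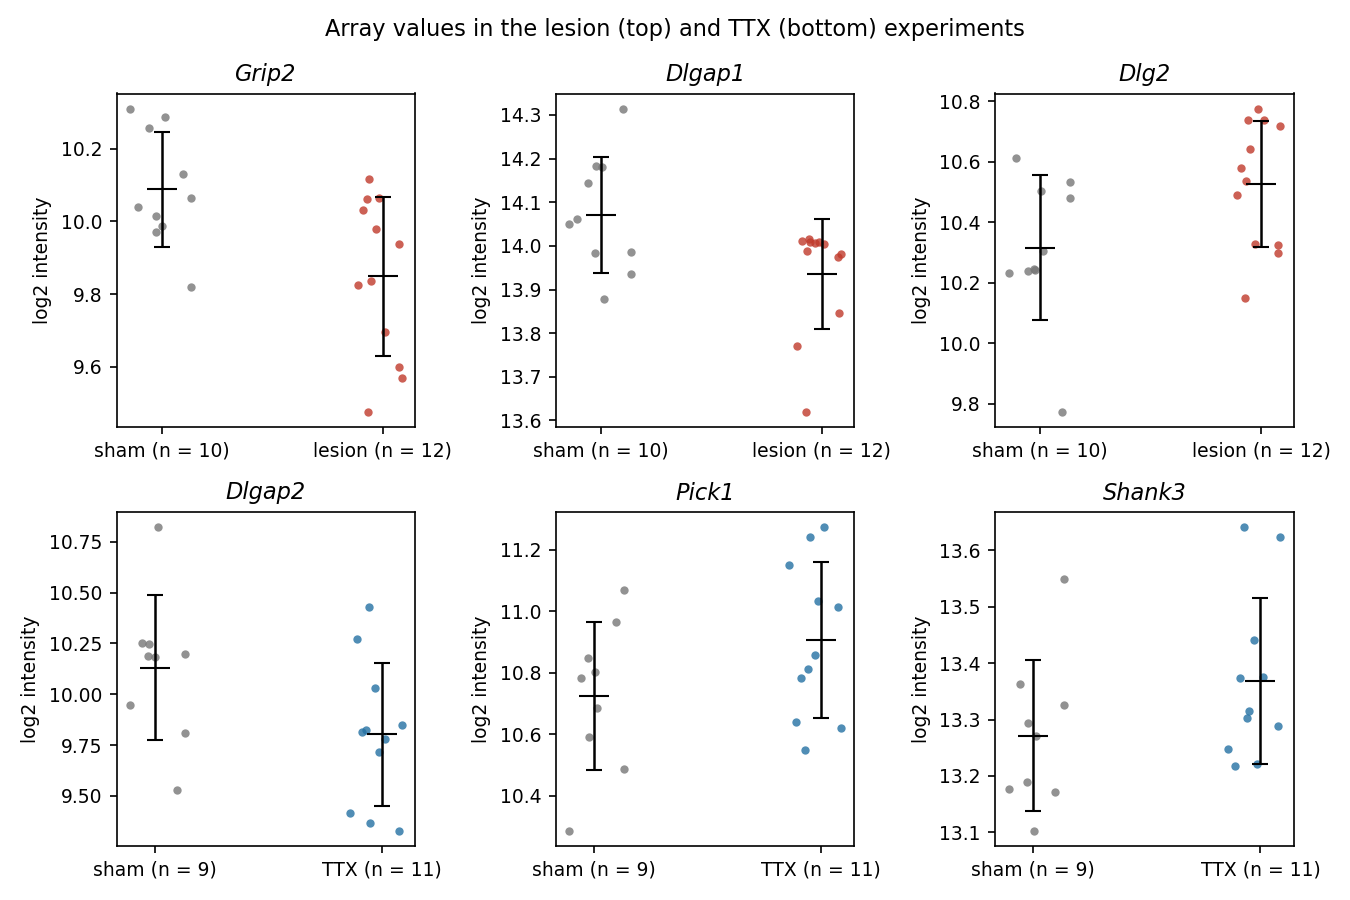
Log2 intensity (vertical axis) of 3 scaffold genes in the lesion experiment (top) and 3 in the TTX experiment (bottom), with 1 point per array, the group mean as a bar and the SD as whiskers. Groups overlapped for every gene shown, and Dlgap1 lay below the sham mean on all 12 lesion arrays.

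After TTX in the ventral hippocampus the scaffold genes lay near sham. Of 35 tested, 20 were lower (50.3% of all), the median was -0.01, 0 were called (0% of all) and 1 had an unadjusted p under 0.05 (4.66% of all). That gene was Dlgap2, a MAGUK-binding scaffold of the Dlgap family, which ran from 9.33 over 9.81 to 10.43 on the 11 TTX arrays and from 9.53 over 10.19 to 10.82 on the 9 sham arrays. Of the TTX arrays 3 lay below every sham array and the rest overlapped with them. The difference was -0.33 ± 0.15 (adjusted p = 0.999).

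Pick1, which binds AMPA receptor subunits during their removal from the synapse, ran from 10.55 over 10.86 to 11.27 with TTX and from 10.29 over 10.78 to 11.07 in sham rats. Its difference was 0.18 ± 0.11 (adjusted p = 0.999), and 3 TTX arrays exceeded every sham array. Cacng2 (stargazin), an auxiliary subunit that carries AMPA receptors to the synapse, was -0.10 ± 0.069 (adjusted p = 0.999), from 11.67 over 12.03 to 12.37 against 12.03 over 12.12 to 12.30. Its 2 probe sets went opposite ways, the other at 0.15, so that their average turned the sign. Shank3, the Shank family member best known from human autism, ran from 13.22 over 13.32 to 13.64 against 13.10 over 13.27 to 13.55, a difference of 0.10 ± 0.065 (adjusted p = 0.999). Begain was 0.15 ± 0.12 and Dlgap1 -0.03 ± 0.045. Beside these values, 8 of 8 oligodendrocyte markers lay lower with TTX (median -0.14) while 6 of 7 striatal (median 0.18) and 8 of 12 pan-neuronal markers (median 0.02) lay higher, none called, and their part in the scaffold values was not tested.

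The direct test of the lesion effect against the TTX effect called 0 of 34 scaffold genes (0% of all), and 5 had an unadjusted p under 0.05 (6.35% of all). Of the 34, 19 were below 0 (49.8% of all) and the median was -0.01. Shank3 had the smallest p, at -0.21 ± 0.088 (adjusted p = 0.71), from a difference of -0.12 ± 0.061 after the lesion and 0.10 ± 0.065 after TTX. Its sham arrays averaged 13.18 ± 0.15 (SD, n = 10) and 13.27 ± 0.13 (SD, n = 9) in these experiments, and its lesion difference was -0.00 among the first 11 sample numbers and -0.23 among the last 11. Dlg2 differed by 0.29 ± 0.13 (adjusted p = 0.741), from 0.21 after the lesion and -0.08 after TTX. The others were Begain at -0.45 ± 0.20, Pick1 at -0.31 ± 0.15 and Grip2 at -0.26 ± 0.12. The 95% interval reached beyond 0.5 from 0 for 8 of the 34 genes (Dlg2, Dlgap2, Begain, Nlgn2, Cacng8, Lin7a, Pick1 and Ppp1r9a).

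Averaged over its 3 dose levels, clozapine gave scaffold gene values slightly above those with vehicle, a shift that was gone with blocks of sample numbers in the model (median -0.00). Of 35 tested, 13 were lower (50.4% of all), the median difference was 0.04 against -0.00 over all, 0 were called (0% of all) and 2 had an unadjusted p under 0.05 (3.82% of all). Means over the 3 dose levels were compared with the same 9 vehicle arrays for both drugs, so the vehicle arrays enter every difference from vehicle below. All 4 MAGUK genes lay above vehicle (median 0.10), and the Shank genes had a median of -0.04. Pan-neuronal markers were lower in 10 of 12 (median -0.05) and striatal markers higher in 7 of 7 (median 0.08), none called, and their part was not tested.

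Tnik, a kinase of the postsynaptic density that acts on actin and glutamate receptors, had the smallest p. It ran from 12.23 over 12.45 to 12.68 on the 27 clozapine arrays and from 12.35 over 12.60 to 12.70 on the vehicle arrays. The groups overlapped, with 25 of 27 clozapine arrays below the vehicle mean and 7 below every vehicle array. The difference was -0.15 ± 0.049 (adjusted p = 0.977). The other 3 probe sets of Tnik did not share it, at 0.06, 0.02 and -0.01, and the average of all 4 gave -0.02.

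Cacng2 ran from 11.67 over 11.87 to 12.25 with clozapine and from 11.55 over 11.79 to 11.92 with vehicle, and 12 clozapine arrays exceeded every vehicle array. Its difference was 0.17 ± 0.082 (adjusted p = 0.977), with 0.37 at the other probe set, and it was 0.09 with blocks of sample numbers (runs of consecutive numbers in the labels) as a term in the model. Cnksr2, a scaffold of Ras signalling that binds MAGUKs, ran from 13.08 over 13.38 to 13.59 against 13.38 over 13.42 to 13.57, a difference of -0.10 ± 0.050 (adjusted p = 0.977). Of the 27 clozapine arrays 14 lay below every vehicle array, and the average of both Cnksr2 probe sets gave -0.06. Dlgap4 ran from 12.73 over 12.97 to 13.27 against 12.46 over 12.87 to 13.23, a difference of 0.12 ± 0.067 (adjusted p = 0.977). It was 0.07 without vehicle replicate 7 and also with the block in the model.

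**Figure D3:**
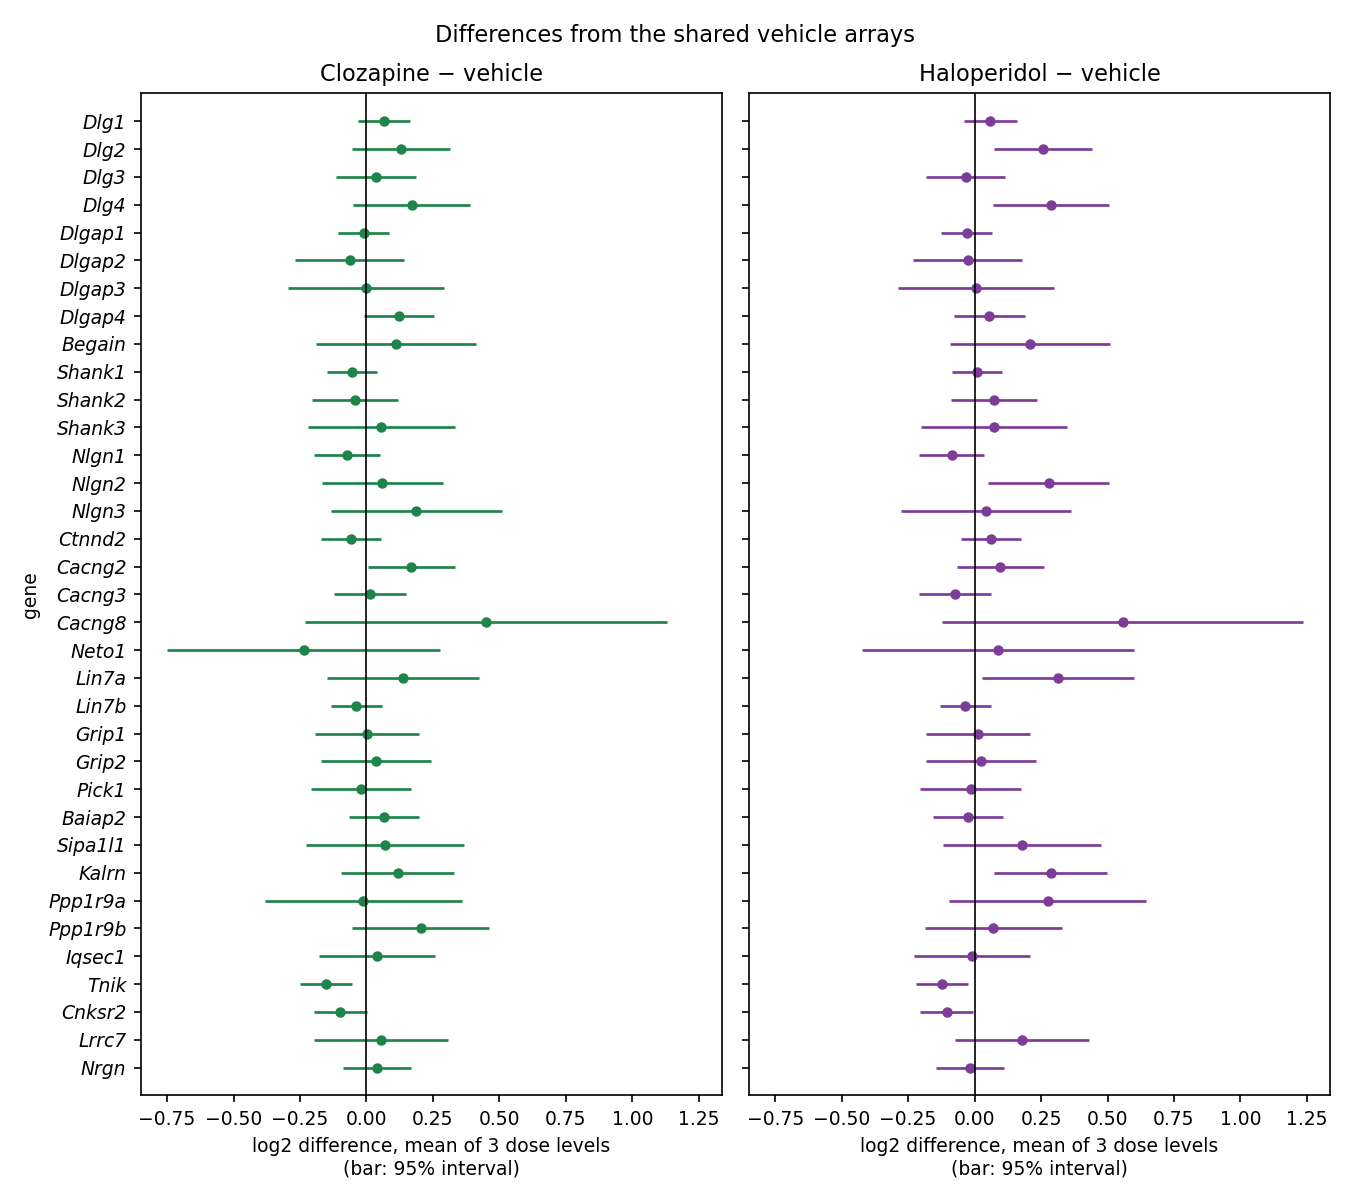
Log2 difference from the 9 vehicle arrays (horizontal axis) for each of the 35 scaffold genes (vertical axis), as the mean of 3 dose levels of clozapine (left) and haloperidol (right), with 95% intervals before adjustment. Tnik lay below 0 with both drugs and Dlg2, Dlg4 and Kalrn above 0 with haloperidol; Cacng8 and Neto1 had the widest intervals, and none was called.

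Haloperidol gave the most low p-values among the scaffold genes. Of 35 tested, 12 were lower (56.9% of all), the median difference was 0.06 against -0.01 over all probe sets, 0 were called (0.0215% of all, 4 probe sets) and 7 had an unadjusted p under 0.05, which is 20.0% against 6.77% of all. Above vehicle were 5 (3.48% of all), Dlg2, Kalrn, Dlg4, Nlgn2 and Lin7a, and below it 2 (3.29% of all), Tnik and Cnksr2. Striatal markers were higher in 5 of 7 (median 0.12) and excitatory neuron markers in 3 of 7 (median -0.02), none called, and their part in these values was not tested. With the block of sample numbers as a term 5 remained under 0.05 (Kalrn, Dlg2, Dlg4, Tnik and Cnksr2), where 7.22% of all were. The median over the 35 moved to 0.01.

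Dlg2 ran from 10.07 over 10.59 to 10.98 on the 27 haloperidol arrays and from 10.12 over 10.27 to 10.67 on the 9 vehicle arrays, a difference of 0.26 ± 0.092 (adjusted p = 0.627). Of the haloperidol arrays 23 exceeded the vehicle mean and 2 lay below every vehicle array. Dlg4, which encodes PSD-95, the main MAGUK of the mature excitatory synapse, ran from 12.15 over 12.75 to 13.09 against 12.13 over 12.36 to 12.94. Its difference was 0.29 ± 0.11 (adjusted p = 0.651), with 0.28 and 0.00 at the other 2 probe sets tested, and 0.12 as the average over all its probe sets.

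Kalrn, an exchange factor that activates Rac and enlarges spines, ran from 11.18 over 11.83 to 12.36 with haloperidol and from 10.97 over 11.56 to 11.85 with vehicle. Of 27 haloperidol arrays 12 exceeded every vehicle array, and the difference was 0.29 ± 0.11 (adjusted p = 0.651). All 4 Kalrn probe sets had a positive difference, the other 3 at 0.17, 0.15 and 0.01, and their average was 0.15. Tnik ran from 12.16 over 12.48 to 12.72, against the vehicle values above, a difference of -0.12 ± 0.049 (adjusted p = 0.651) at this probe set and -0.03 as the average of all 4. Lin7a differed by 0.32 ± 0.14 (adjusted p = 0.699) and Nlgn2 by 0.28 ± 0.11 (adjusted p = 0.651).

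The 2 drugs were also compared directly, 27 arrays against 27. Of 35 scaffold genes 0 were called, where 1.21% of all probe sets were, and 5 had an unadjusted p under 0.05, all lower with clozapine (15.2% of all in either direction, 6.66% of all lower and 8.49% higher). Of the 35, 21 were lower with clozapine (43.9% of all), with a median of -0.01 against 0.01 over all. With blocks of sample numbers as a term, 0 of the 35 kept an unadjusted p under 0.05, and the calls over all probe sets went from 225 to 0. Interneuron markers were higher with clozapine in 5 of 7 (median 0.02), 1 of them called (Npy, 0.15 ± 0.035, adjusted p = 0.0241), and endothelial and mural markers in 6 of 9 (median 0.10, none called). Their part in the scaffold values was not tested. Ctnnd2, delta-catenin, which binds cadherins at the synapse, ran from 13.60 over 13.84 to 14.07 with clozapine and from 13.60 over 13.92 to 14.26 with haloperidol, a difference of -0.12 ± 0.040 (adjusted p = 0.120). No clozapine array lay outside the range of the haloperidol arrays, and 22 of 27 clozapine arrays were below the haloperidol mean. With the block of sample numbers in the model the difference was -0.06 (adjusted p = 0.942). Ctnnd2 was at 13.90, 13.78, 13.76 and 14.01 on average in the 4 blocks, and the third, with 11 clozapine arrays, held none with haloperidol.

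Nlgn2, the neuroligin of inhibitory synapses, ran from 9.49 over 9.96 to 10.58 with clozapine and from 9.56 over 10.17 to 10.70 with haloperidol, a difference of -0.22 ± 0.081 (adjusted p = 0.158), and of -0.11 with the block in the model. The other 3 of the 5 were Kalrn at -0.17 ± 0.075, Ppp1r9a (neurabin, which brings a phosphatase to actin) at -0.29 ± 0.13 and Shank2 at -0.11 ± 0.057. Tnik, low against vehicle with both drugs, differed between them by -0.03 ± 0.035 (95% interval -0.10 to 0.04), and Cnksr2 by 0.01 ± 0.035 (95% interval -0.06 to 0.08).

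Several members lay near their controls with narrow intervals in all 4 comparisons with a control. Nrgn, which encodes the calmodulin-binding protein neurogranin, differed by -0.04 (95% interval -0.15 to 0.08) after the lesion, 0.04 (-0.05 to 0.13) after TTX, 0.04 (-0.09 to 0.17) with clozapine and -0.02 (-0.15 to 0.11) with haloperidol. Dlg1, the MAGUK also found along the secretory route of AMPA receptors, differed by -0.01, -0.00, 0.07 and 0.06 in that order. Lin7b was at 0.03, 0.00, -0.04 and -0.03, and Nlgn1, the neuroligin of excitatory synapses, at 0.00, -0.06, -0.07 and -0.09. None of these 4 genes had an interval reaching 0.25 from 0 in these comparisons, so a larger shift of their mean is outside the 95% interval. These intervals hold for the model without blocks of sample numbers. Among neuroleptic arrays blocks held 34.7% of the variance of Nrgn, 22.6% for Dlg1, 9.04% for Lin7b and 35.2% for Nlgn1.

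At single clozapine levels 0 of 35 scaffold genes were called at each, where 0%, 0.0215% and 0.00537% of all probe sets were at the low, medium and high level. The counts with an unadjusted p under 0.05 were 2, 2 and 0 (2.72%, 4.05% and 3.88% of all), and 10, 15 and 11 genes were lower than vehicle (51.6%, 49.2% and 49.9% of all). Tnik differed from vehicle by -0.15 ± 0.059, -0.21 ± 0.060 and -0.10 at the 3 levels, with an adjusted p of 0.536 at the medium and 0.987 at the high level. At the medium level all 9 arrays lay below the vehicle median and 5 below every vehicle array, from 12.23 over 12.34 to 12.53, although the average over the 4 Tnik probe sets was -0.04. Dlgap2 was -0.26 ± 0.12 at the low level and 0.04 at each of the others. Cnksr2 was -0.13 ± 0.061 at the medium level (adjusted p = 0.984), and -0.06 as the average of its probe sets. At the high level the 2 smallest p-values belonged to Dlgap4 (0.16 ± 0.084) and Lin7b (-0.11 ± 0.060), both at an adjusted p of 0.987.

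At single haloperidol levels 0 of 35 were called at each, where 0%, 0.00537% and 0.0268% of all probe sets were. An unadjusted p under 0.05 was reached by 2, 3 and 6 (4.25%, 4.69% and 7.74% of all), and 8, 13 and 14 genes were lower than vehicle (54.8%, 55.5% and 54.2% of all). With the block of sample numbers as a term the counts under 0.05 were 1, 2 and 7 (4.89%, 6.65% and 7.22% of all). The median difference went from 0.05, 0.04 and 0.05 to 0.02, -0.01 and 0.07. Nlgn2 at the high level had the smallest adjusted p of any single dose, 0.345. It ran from 9.88 over 10.36 to 10.64 on the 9 haloperidol arrays and from 9.54 over 9.86 to 10.23 on the 9 vehicle arrays. All 9 haloperidol arrays exceeded the vehicle median and 6 exceeded every vehicle array. The difference was 0.47 ± 0.14, a 1.39-fold level, against 0.25 and 0.12 at the low and medium levels. The second Nlgn2 probe set gave 0.07 at the high level, and their average 0.27. The log2 ratio of 3′ to 5′ actin probe sets, a sign of RNA quality, was 1.12 ± 0.14 (SD, n = 9) at high haloperidol and 0.94 ± 0.11 (SD, n = 9) with vehicle, and that of GAPDH 0.08 and 0.07. Pan-neuronal markers were lower in 10 of 12 (median -0.05), interneuron markers in 5 of 7 (median -0.06) and endothelial and mural markers in 8 of 9 (median -0.05), none called. The part of these in the values at high haloperidol was not tested.

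Cnksr2 at high haloperidol ran from 12.90 over 13.32 to 13.41, against 13.38 over 13.42 to 13.57 with vehicle. Of the 9 arrays 8 lay below every vehicle array, and the lowest was replicate 8, 1 of the 4 arrays of low correlation. The difference was -0.19 ± 0.061 (adjusted p = 0.403), and -0.14 without the arrays of low correlation. At the low and medium levels Cnksr2 was at -0.02 and -0.11, and its second probe set was at -0.08 at the high level. No test of a trend over dose was run, and the 3 levels share the vehicle arrays.

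At medium haloperidol Dlg2 was 0.32 ± 0.11 above vehicle (adjusted p = 0.999), with 3 arrays above and 1 below every vehicle array, and Tnik was -0.15 ± 0.060 (adjusted p = 0.999). At low haloperidol Kalrn was 0.31 ± 0.13 above (adjusted p = 0.999). Cacng8, an AMPA receptor auxiliary subunit rich in hippocampus, was 0.84 ± 0.42 above vehicle at the low level (adjusted p = 0.999), from 8.82 over 10.50 to 11.14 against 8.89 over 9.20 to 10.49. Its values were spread widely in every drug group, and with the block of sample numbers in the model the difference was 0.46.

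**Figure D4:**
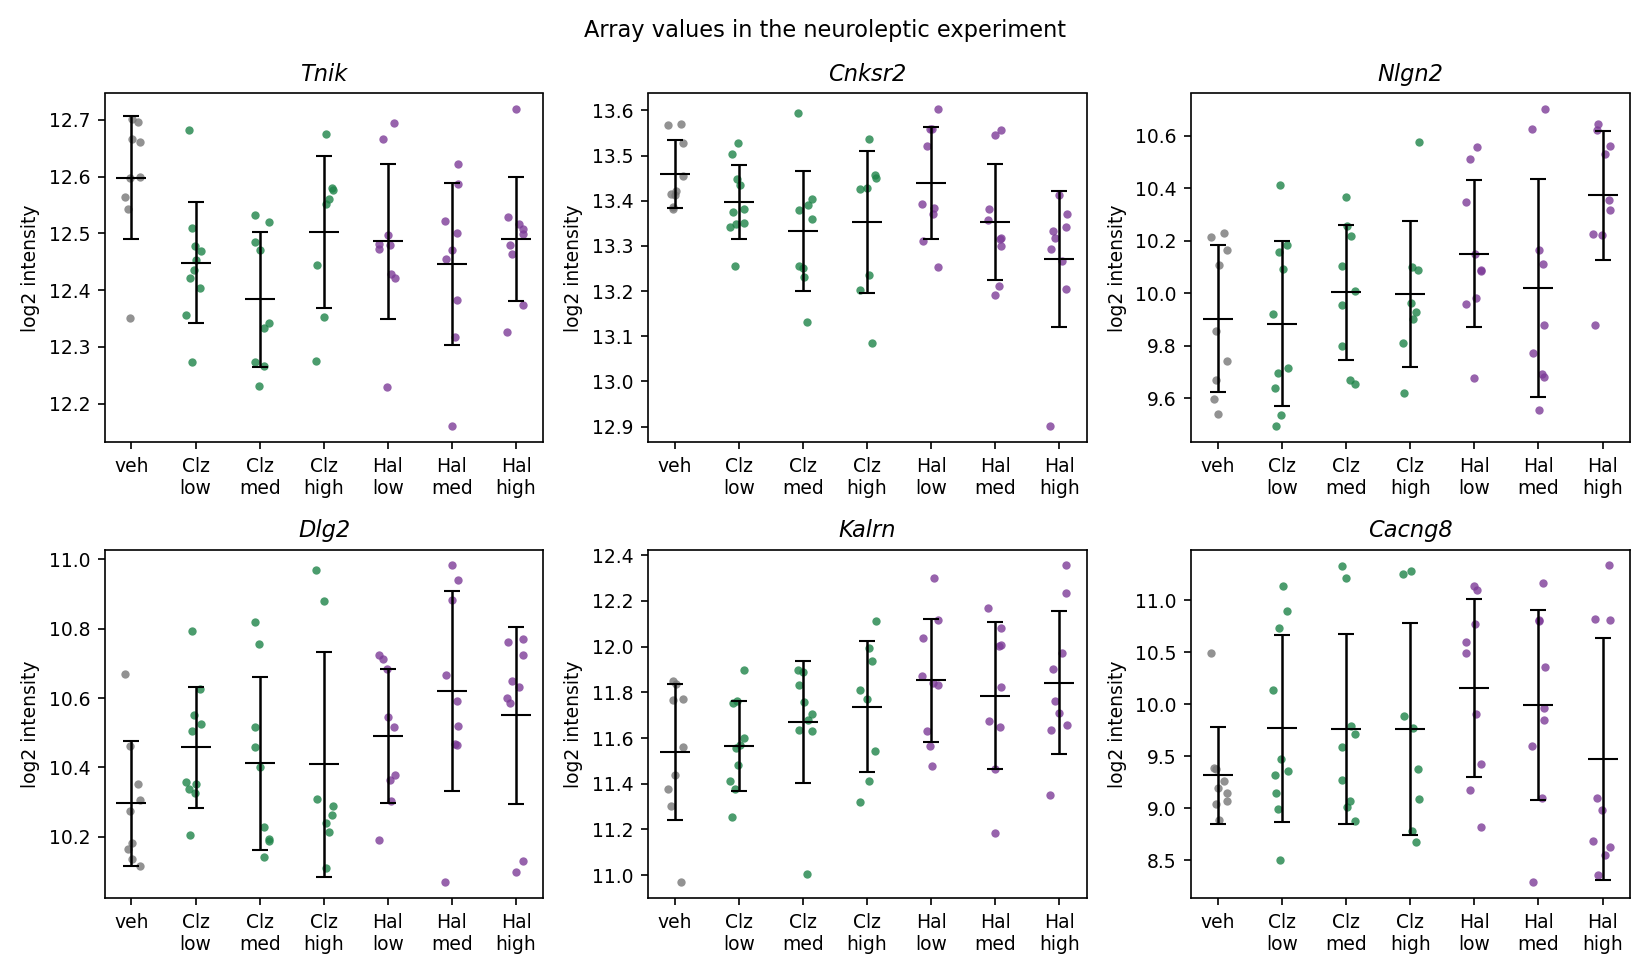
Log2 intensity (vertical axis) of 6 scaffold genes on each array of the 7 neuroleptic groups (veh, vehicle; Clz, clozapine; Hal, haloperidol; med, medium), with 1 point per array, the group mean as a bar and the SD as whiskers. The mean of Tnik was below the vehicle mean in all 6 drug groups and that of Nlgn2 highest at high haloperidol, while Cacng8 ran from 8.82 to 11.14 at low haloperidol alone.

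The number an array bears in its label went with the level of the scaffold genes more than its drug group did. The numbers in the neuroleptic labels run in 4 blocks that each begin with vehicle samples (2 to 17, 18 to 37, 38 to 50 and 51 to 64). The labels do not say what a number stands for. The mean over the 35 genes, each centred on its average over the experiment, was 0.04 ± 0.097 (SD, n = 16), 0.10 ± 0.087 (SD, n = 20), -0.09 ± 0.058 (SD, n = 13) and -0.11 ± 0.074 (SD, n = 14) in the 4 blocks. Blocks accounted for 55.1% of its variance and the 7 groups for 8.18%. Blocks held 18.5% in the lesion experiment and 0.575% in the TTX experiment. Each was cut into 2 equal runs of numbers (36 to 46 and 47 to 57, 126 to 135 and 136 to 145). The main axis of variation over all tested probe sets (first principal component) changed sign inside the first TTX run. It went from -15.6 on TTX replicate 5 to 8.24 on TTX sham replicate 4, so the 0.575% holds for that cut only.

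Single genes of the neuroleptic arrays also differed between blocks. The median share of variance held by blocks was 31.0% over the scaffold genes against 20.0% over all tested probe sets, and 23 of the 35 were above the latter. It exceeded 50% for Nlgn3 (62.9%), a neuroligin, Iqsec1 (60.0%), an exchange factor for Arf proteins, Neto1 (52.7%) and Shank3 (51.1%). Among all tested probe sets these shares stood at percentiles 99.6, 99.2, 96.3 and 95.5. Nlgn3 averaged 10.87, 11.10, 10.68 and 10.19 in the 4 blocks, Iqsec1 13.97, 14.21, 13.95 and 13.62, and Shank3 13.29, 13.47, 13.00 and 12.85. These 3 were highest in the second block and lowest in the last. Neto1 ran the other way, at 9.66, 8.85, 9.09 and 10.10. Cnksr2 had the lowest share, 1.72%.

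Other measures moved with the blocks. The log2 ratio of the 3′ to the 5′ GAPDH control probe set, a measure of RNA quality, averaged 0.08, 0.13, 0.06 and 0.04 in the 4 blocks. The same ratio for actin averaged 1.003, 0.91, 0.92 and 1.13, so that the last block was the lowest by GAPDH and the highest by actin. The mean of the excitatory neuron markers, centred as above, was 0.08, 0.06, -0.06 and -0.12. The part of these in the scaffold values was not tested.

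With the block as a term in the model the median difference of the scaffold genes was -0.00 for clozapine and 0.01 for haloperidol against vehicle, and again 0 were called in all 12 comparisons. The values inside blocks rest on 2 or 3 vehicle arrays each. A block term does not take up differences between arrays inside a block. In block 2 the main axis of variation stood at 3.14 and 6.44 on the vehicle arrays and ran from -31.1 to 2.00 on the drug arrays. The part of this in the values was not tested. The median of tested members with haloperidol was 0.15, -0.03 and -0.05 in blocks 1, 2 and 4, which hold haloperidol arrays. Tnik was lower with haloperidol in each of them (-0.22, -0.16 and -0.11) and lower with clozapine in 3 of 4 (-0.21, -0.26, 0.07 and -0.24). The 4 blocks held 6, 8, 11 and 2 clozapine arrays, the most in the block where Tnik was higher. High haloperidol against vehicle gave Nlgn2 0.61, 0.27 and 0.32 and Cnksr2 -0.12, -0.27 and -0.21 in blocks 1, 2 and 4. Dlg2 was less even with haloperidol, at 0.57, -0.06 and 0.23, and so was Dlg4, at 0.64, -0.02 and 0.25.

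**Figure D5:**
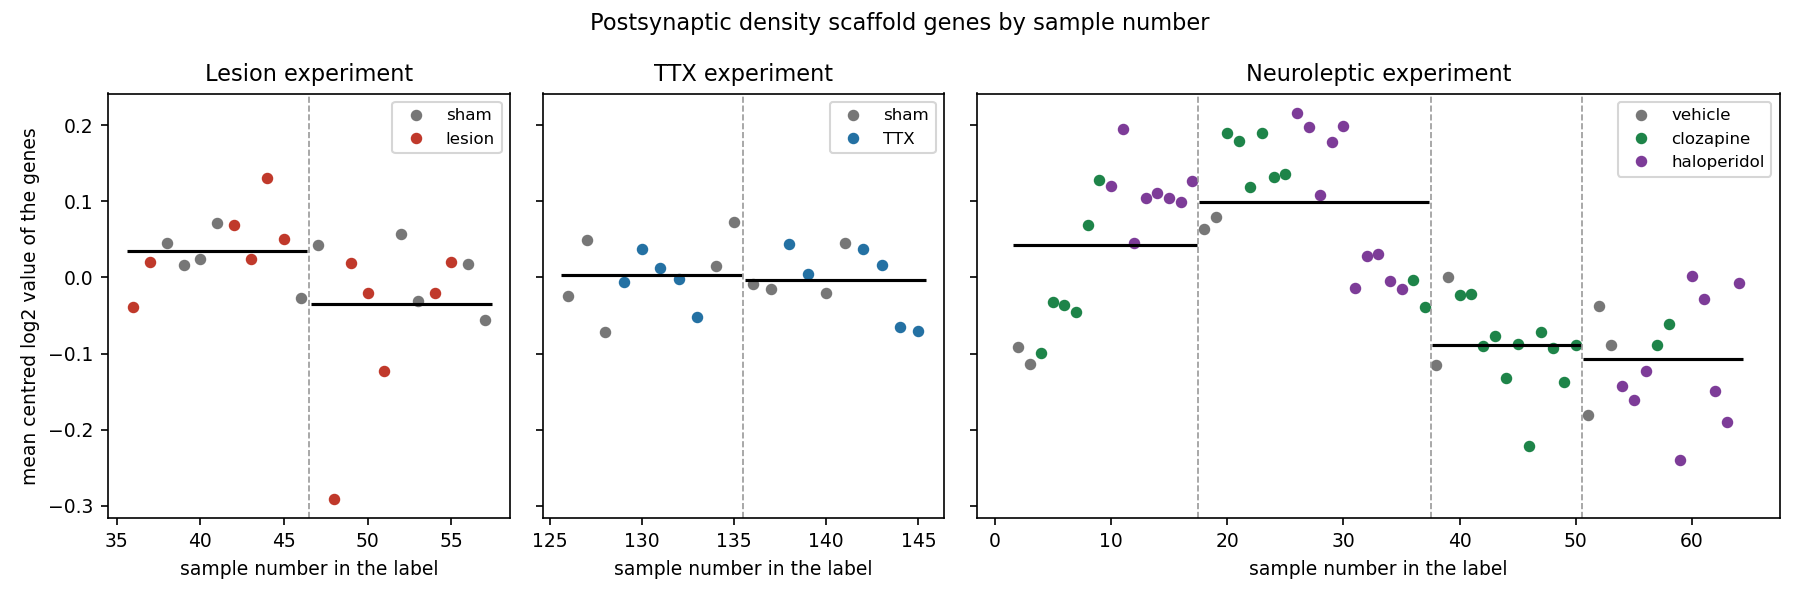
Mean of the centred log2 values of the scaffold genes (vertical axis) against the sample number in the label (horizontal axis) for each array of the 3 experiments, coloured by group; dashed lines separate blocks of numbers and black bars are block means. In the neuroleptic experiment the first 2 blocks averaged 0.04 and 0.10 and the last 2 -0.09 and -0.11.

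Other genes of the postsynaptic density were taken from a list of 53 names, of which 46 were measured and 41 tested. After the lesion 0 were called, 30 of 41 were lower (50.5% of all, median -0.07) and 6 had an unadjusted p under 0.05 (7.79% of all), each of them lower. They included Magi1 (-0.26 ± 0.083), a MAGUK with inverted domains, Homer1 (-0.14 ± 0.049), which ties Shank to metabotropic glutamate receptors, and Lrfn2 (-0.21 ± 0.077), an adhesion protein that binds PSD-95. Lesion replicate 7, of low correlation, was the lowest array of its experiment for this list too, at -0.21 from the experiment's average. The median of the list without it was not computed. After TTX 0 were called and the median was 0.01, with Gda at 0.12 ± 0.059, Anks1a at -0.13 ± 0.071 and Arc at 0.32 ± 0.20. In the test of the lesion effect against the TTX effect 0 were called, with Magi1 at -0.26 ± 0.10, Dbn1 (drebrin, an actin-binding protein of spines) at -0.23 ± 0.097 and Arhgef7 at -0.26 ± 0.12.

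Against vehicle, 0 of the 41 were called for the mean of either drug, with Arc, the activity-regulated protein that removes AMPA receptors, at 0.84 ± 0.22 (adjusted p = 0.759), Anks1a at -0.12 ± 0.062 and the kinase gene Fyn at -0.08 ± 0.044 with clozapine. With haloperidol Homer1 was 0.18 ± 0.056 (adjusted p = 0.508) and Grm5, the metabotropic receptor bound by Homer, 0.44 ± 0.17, and Arc 0.61 ± 0.22 (both adjusted p = 0.651). Arc was called at medium clozapine, a comparison singled out after its value was seen. It rose there by 1.46 ± 0.27 (adjusted p = 0.00993), from 10.91 ± 0.46 (SD, n = 9) to 12.37 ± 0.81 (SD, n = 9). Of the 9 arrays at that level 8 lay above the vehicle mean. The highest difference of any of the 41 was 0.52 at low and 0.55 at high clozapine. At these 2 levels 0 were called and 0 had an unadjusted p under 0.05. Between clozapine and haloperidol 2 of the 41 were called (1.21% of all probe sets, and 0 with the block), both lower with clozapine: Ctnnb1, beta-catenin, by -0.36 ± 0.085 (adjusted p = 0.0273), and Abi1, a regulator of actin branching, by -0.17 ± 0.044 (adjusted p = 0.0388). Grm5 was at -0.42 ± 0.12 (adjusted p = 0.0562). With the block of sample numbers in the model neither Ctnnb1 nor Abi1 was called (Ctnnb1 -0.18, adjusted p = 0.862, and Abi1 -0.09, adjusted p = 0.826), and the average over all probe sets of Ctnnb1 was 0.0090.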

How the data were processed

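The deposited table held 1 linear intensity per probe set and array (31099 probe sets); how the authors made it is not given in the sources used here. Its values showed a scaling by the authors: the mean after trimming 2% at either end was 2500.6 to 2500.8 on each array. Intensities were quantile-normalised within each experiment, floored at 32 and put on the log2 scale; 57 control probe sets were dropped, and the 60% with the highest mean were tested. Models were fitted in R 4.3.3 with limma 3.58.1 (lmFit, eBayes), 1 mean per group and no covariate, with Benjamini-Hochberg adjustment over all tested. A common residual spread served all neuroleptic groups, and the lesion and TTX effects were compared in a joint fit of both experiments. Symbols came from the platform table, where 20826 probe sets had 1 symbol, 436 several and 9780 none, and all 35 scaffold symbols were unchanged in a RefSeq table. The script was tested on simulated data. The members and lists were chosen with earlier results of these data known. Named were the 4 genes with the smallest p against control in the lesion, TTX and both drug comparisons, 2 in each other comparison, and called or up to 3 further postsynaptic genes in the 6 main ones. No pair of arrays held identical values (0 pairs, highest correlation 0.969). The number of arrays limits the precision.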

Additional observations from a re-analysis of the deposited data

Results flagged for a closer look

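Single arrays stood apart from the rest of their group for 5 genes, among 70 groups examined. The gap to the next array was 0.55 to 0.69 of the range of the group. About 1 in 20 groups was taken to show this by chance. That rate was assumed, so whether the count departs from chance was not tested. Dlg2 was at 9.77 on lesion sham replicate 7, with the next array at 10.23. Tnik was at 12.35 on vehicle replicate 6, with the next at 12.54. Dlgap4 was at 13.27 on clozapine medium replicate 4, with the next below it at 13.03. Cacng8 was at 10.49 on vehicle replicate 3, with the next below it at 9.39. Cnksr2 was at 12.90 on haloperidol high replicate 8, an array of low correlation with the others, with the next at 13.21.

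The effects of the 2 drugs differed by the direct test for 2 further postsynaptic genes, Abi1 by -0.17 and Ctnnb1 by -0.36 on the log2 scale, both lower with clozapine. With the block of sample numbers in the model neither was called (adjusted p = 0.826 and 0.862), and the average over all Ctnnb1 probe sets was 0.0090.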

How the results depend on the processing

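Quantile normalisation, the floor (128), the filter (none, or the top 40%), the average of all probe sets of a gene, the block of sample numbers, array weights, 4 arrays of low correlation and each array in turn were varied or left out. In every one of these, 0 scaffold genes were called in the 12 comparisons. With the average of all probe sets, 2 values turned sign, Cacng2 with TTX (0.025) and Ctnnb1 between the drugs (0.0090). Abi1 lost its call without the filter, with that average, with the block, without the low-correlation arrays and without 22 of 63 single arrays, drawn from all 6 drug groups (adjusted p 0.003 to 0.068 over all 63). Ctnnb1 lost its call without the filter, with the block and without clozapine high replicate 1 or haloperidol high replicate 7 (adjusted p 0.001 to 0.053 over all 63). Arc at medium clozapine stayed called throughout. Under the 40% filter Dlg2, Grip1, Grip2, Dlgap2, Nlgn2, Cacng8, Neto1 and Ppp1r9a were not tested in any experiment. Begain was not tested there in the lesion and TTX experiments. These genes could not be called under that setting. Over single arrays left out the median scaffold difference ran from -0.055 to -0.023 for the lesion, -0.021 to 0.008 for TTX, 0.006 to 0.064 for clozapine and 0.019 to 0.066 for haloperidol. No paired analysis was possible because replicates were numbered by accession, which pairs no arrays between groups.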

Other observations

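Ctnnd2 and Neto1 also differed between the runs of sample numbers in the TTX experiment, where the block held 65.3% and 53.8% of their variance. The median block share over the scaffold genes was 6.38% there, against 9.35% over all tested probe sets. In the lesion experiment it was 3.34% against 4.78%. Ctnnd2 averaged 13.92 in the first run and 13.70 in the second, and Neto1 9.45 and 8.59. Cacng8 averaged 10.18, 10.35, 9.24 and 8.88 in the 4 neuroleptic blocks. Within groups of the neuroleptic experiment the median SD of the scaffold genes was 0.26 against 0.22 over all tested probe sets, and 6 genes (Shank1, Lin7b, Dlgap1, Tnik, Cnksr2 and Dlg1) were the most even, each at 0.12.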
